A study of Mus musculus with 6 samples.

Results

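The MYC network is a set of 10 genes whose proteins meet at 1 small partner, Max. The members were chosen by gene symbol: each probe set of the array whose only annotated gene is Myc, Mycn, Mycl, Max, Mxi1, Mxd1, Mxd3, Mxd4, Mnt or Mga. All 10 genes were found, with 1 probe set each, among 19937 genes with at least 1 such probe set. The rule uses no measured value, but the list of genes was drawn up with earlier results of these arrays known. The arrays came from mouse embryonic stem cells, 3 with siRNA knockdown of Trim71 and 3 controls. Trim71 (Lin41) binds RNA and is active in early embryos. The knockdown cells were transfected with a pool of siRNAs against Trim71 and collected 72 h later. The control cells are described as wild type, and the labels do not settle whether they received the non-targeting siRNA that the protocol mentions. The labels name no strain or line, and nothing says that replicates came from separate cultures, so p-values measure the spread between these arrays, which may be technical.

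Myc, Mycn and Mycl are transcription factors of the basic helix-loop-helix leucine zipper type. Each binds DNA as a pair with Max, most often at the E-box CACGTG, and raises transcription of genes for growth, ribosome building and metabolism. The Mxd proteins (Mxi1 is the Mxd2 protein), Mnt and Mga also pair with Max and bind E-boxes, but they recruit corepressors. In mouse embryonic stem cells Myc and Mycn support self-renewal and rapid growth, and Max and Mga, within a Polycomb complex, hold germ cell genes silent.

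The promoter sequences show which members carry an E-box of their own next to the transcription start. RefSeq promoter windows, 250 bases before to 50 after a start in GRCm38.p6, were found for 9 of the 10 members, in 11 windows (none for Myc), with 3 starts for Mxi1. The word CACGTG, which reads alike on both strands, occurred in 3 of the 11 windows (27.3%) and in 7.15% of 32851 mouse promoter windows. The 3 are those of Max, Mnt and Mxd4. Each stretch is written 5′ to 3′ along the gene with the E-box in capitals.
Max, chr12:76962236-76962261, minus strand: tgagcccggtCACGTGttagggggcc
Mnt, chr11:74830791-74830816, plus strand: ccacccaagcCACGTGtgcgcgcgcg
Mxd4, chr5:34187914-34187939, minus strand: gctgggccacCACGTGctgttgctaa
The first base of the E-box lies 3 bases upstream of the start in Max, 123 in Mnt and 219 in Mxd4.

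Mycn is shown in full, because it had the largest difference of the 10 genes between knockdown and control. Its window holds no CACGTG. It holds 3 matches to the E2F words TTTGGCGC and TTTCGCGC, searched on both strands, 2 of which overlap. At least 1 of these words occurred in 0.813% of all promoter windows and, among the members, only in the window of Mycn. Capitals mark the matches in the sequence, which is written along the gene and lies on the minus strand. These letters are a description and do not show that a factor binds there.
Mycn, chr12:12941787-12942086, minus strand: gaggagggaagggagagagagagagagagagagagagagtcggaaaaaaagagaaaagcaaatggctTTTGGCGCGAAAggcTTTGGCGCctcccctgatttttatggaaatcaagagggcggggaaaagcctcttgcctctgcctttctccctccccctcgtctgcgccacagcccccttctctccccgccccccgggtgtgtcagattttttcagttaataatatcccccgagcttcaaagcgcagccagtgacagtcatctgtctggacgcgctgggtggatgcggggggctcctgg

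Trim71 itself fell to 34.9% of its control signal (log2 fold change −1.52 ± 0.045 SE, limma adjusted p = 2.8e-05). Knockdown array 3 stood somewhat apart, with an upper quartile of 8.42 against 8.32 to 8.35 on the other arrays. All 12 embryonic stem cell markers had mean log2 levels of at least 9.78. The mean over these 12 markers was 11.44 to 11.50 on knockdown arrays and 11.32 to 11.36 on control arrays. Of these 12, 3 were called higher (Zfp42, Klf4 and Fgf4), against 3.39% of all genes, and the others were not called. The mean over 10 fibroblast markers, which could come from feeder cells, was 7.64 to 7.71 on knockdown arrays and 7.76 to 7.87 on control arrays. Of these 10, 3 were called lower (Vim, Acta2 and Tagln), against 2.15% of all genes. The others were not called, which does not show that they were unchanged, and the list mean includes the 3 called genes. Among markers of endoderm, mesoderm, neural and trophectoderm cells, Nes and Tfap2c were called higher and Pax6 lower. The other measured markers of these cells were not called. The files carry no detection call, so no marker was called absent, and the part of these shifts in the results was not tested. In bulk RNA, fewer cells of a type and less RNA per cell cannot be told apart.

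Of the 10 members, 2 rose after the knockdown, the activator Mycn and the repressor Mxi1, and 0 fell. A call here is an adjusted p under 0.05 in limma, with Benjamini-Hochberg adjustment over all 19937 genes. By this rule 5.53% of all genes were called, 3.39% higher and 2.15% lower. The share of higher genes among the calls was 61.2%, but 50.5% when quantile normalization was repeated and 46.1% when array medians were equalised. Without knockdown array 3 it was 46.3%, and with any other array left out it was 59.4% to 68.7%. At an unadjusted p under 0.05, which 19% of all genes met, Myc was also lower and Max also higher. The groups had no overlapping values for Mycn, Mxi1, Max and Myc, 4 of 10 members, while 25.5% of all genes had no overlap, 14.7% higher and 10.8% lower in the knockdown. With 10 members these shares are loose.

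**Figure D1:**
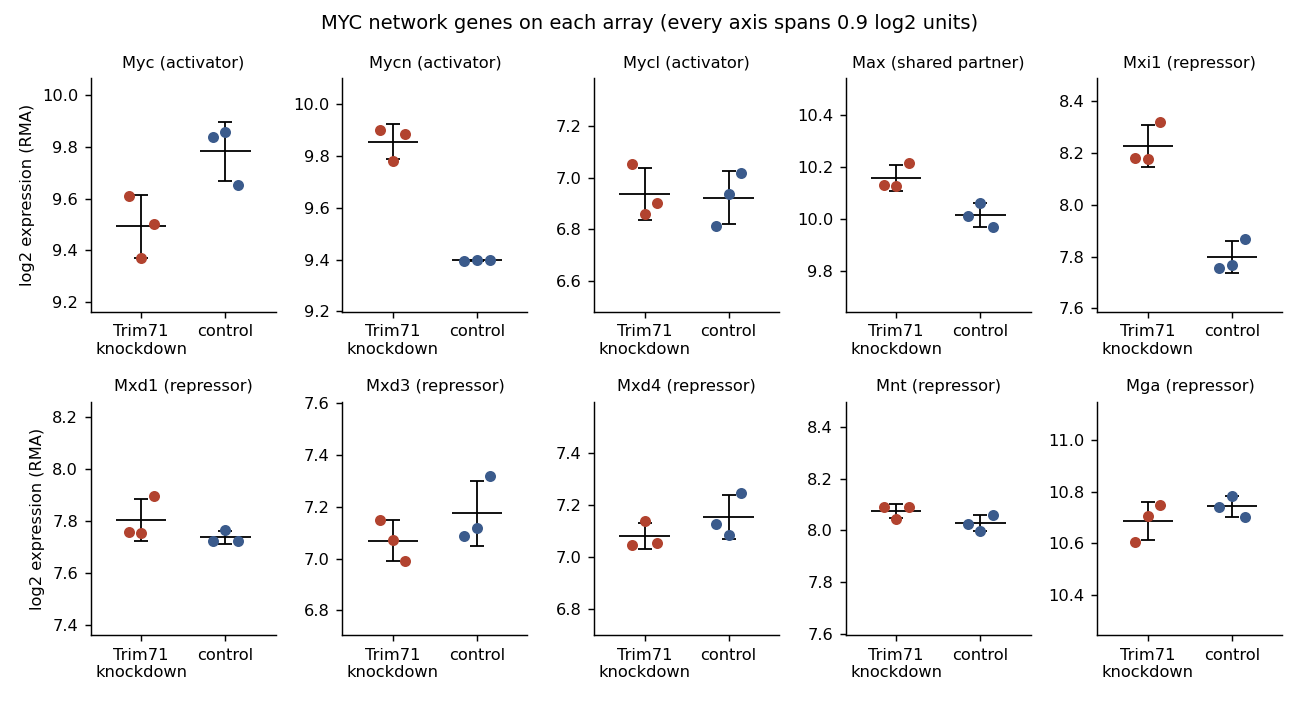
Log2 expression (RMA, vertical axis) of the 10 members on each array, knockdown arrays in red on the left and control arrays in blue on the right of each panel. Points are arrays 1 to 3 from left to right, horizontal lines are means and error bars are SD (n = 3); the groups are apart for Myc, Mycn, Max and Mxi1 and overlap for the other members.

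Among the activators, Mycn, the family member of embryonic and neural tissue, read 9.90, 9.78 and 9.89 (log2 level) on knockdown arrays 1 to 3. On control arrays 1 to 3 it read 9.40, 9.40 and 9.40. Every knockdown array lay above every control array, and the control values were almost the same. Mycn averaged 9.86 ± 0.067 in knockdown cells and 9.40 ± 0.0012 in control cells (SD, n = 3 each). This is a rise of 1.37-fold (95% confidence interval 1.26 to 1.49; log2 fold change 0.46 ± 0.051 SE, limma adjusted p = 0.00493). It stayed called in limma in all 6 fits that left out 1 array, with adjusted p-values of 0.0105 to 0.0328. In order of log2 fold change Mycn was number 152 of 19937 genes from the top.

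Myc, the most widely expressed family member, read 9.61, 9.37 and 9.50 (log2 level) on the knockdown arrays and 9.84, 9.86 and 9.65 on the control arrays. The knockdown values lay below the control values, but knockdown array 1 and control array 3 came close to each other. Its log2 fold change was −0.29 ± 0.082 SE, a level 1.22-fold lower, and it was not called (limma adjusted p = 0.0987). The 95% confidence interval of the ratio of knockdown to control was 0.718 to 0.935. Myc was called lower in limma under 3 of 15 alternative settings, with adjusted p-values of 0.0108 with a trended and robust prior, 0.0256 with array weights and 0.0347 among genes above the median level. Over all 15 settings the adjusted p ranged from 0.0108 to 0.294.

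Mycl, the third activator, read 7.05, 6.86 and 6.90 (log2 level) in knockdown cells and 6.81, 6.94 and 7.02 in control cells. The groups overlapped fully. Its ratio of knockdown to control was 1.01, with a 95% confidence interval of 0.897 to 1.14, so a true difference within these bounds is not excluded. The small positive log2 fold change of 0.01 turned negative under both other scalings, at −0.02 each.

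Mycn was also set against Myc within each array. The difference of the log2 values of a gene pair on the same array is free of any offset shared by all genes of that array. Array differences that vary with signal level do not cancel. The difference is given here relative to its mean over the control arrays. For Mycn minus Myc it was 0.67, 0.79 and 0.77 on knockdown arrays 1 to 3 and −0.06, −0.08 and 0.13 on control arrays 1 to 3. The signal of Mycn relative to Myc was thus 1.68-fold higher in the knockdown cells, with no overlap between groups. The pair was chosen after its values were seen, so no test is given. Which of the transcripts was the more abundant cannot be read from these values, since probe sets differ in brightness.

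**Figure D2:**
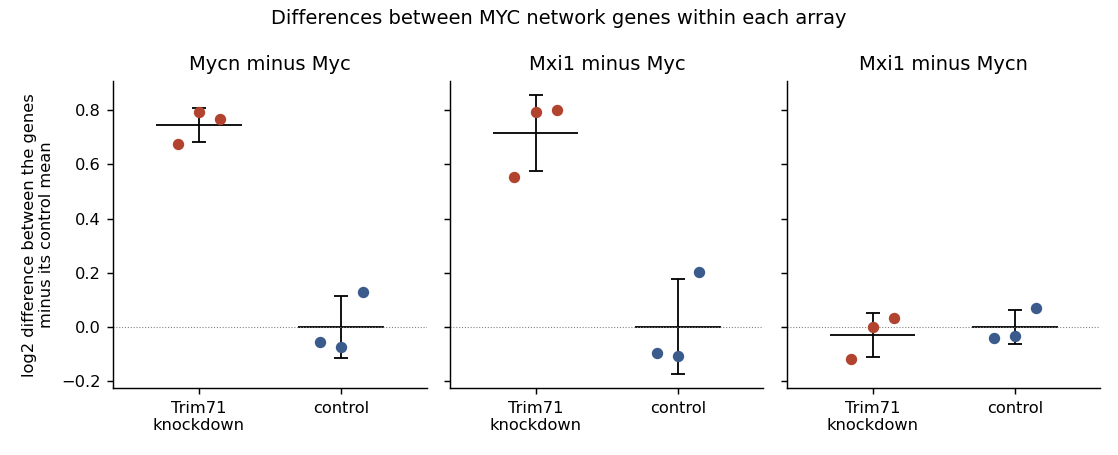
Log2 difference between a pair of members on each array, minus the mean of that difference over the control arrays (vertical axis, log2 units), with knockdown arrays on the left and control arrays on the right of each panel. Lines are means and error bars SD (n = 3); Mycn and Mxi1 both stood higher relative to Myc on knockdown arrays, while Mxi1 relative to Mycn overlapped between groups.

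Max, the partner that the other members share, read 10.13, 10.13 and 10.22 (log2 level) on knockdown arrays. It read 10.01, 10.06 and 9.97 on control arrays. The groups did not overlap, but the difference was small. The log2 fold change was 0.14 ± 0.051 SE, a ratio of 1.10 (95% confidence interval 1.02 to 1.2), and it was not called (limma adjusted p = 0.177). Max was called under 1 of 15 alternative settings, the trended and robust prior, with a limma adjusted p of 0.0295, and its adjusted p ranged up to 0.406.

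Mxi1 was the 1 repressing partner that rose. The gene encodes an antagonist of Myc that recruits the Sin3 corepressor, and it is known as a gene induced in hypoxia. It read 8.18, 8.18 and 8.32 (log2 level) in knockdown cells, against 7.76, 7.77 and 7.87 in control cells. All knockdown values lay above all control values. The mean was 8.23 ± 0.080 in knockdown cells and 7.80 ± 0.062 in control cells (SD, n = 3 each). The rise was 1.35-fold (95% confidence interval 1.22 to 1.48; log2 fold change 0.43 ± 0.060 SE, limma adjusted p = 0.0102). The call was lost without control array 1 (limma adjusted p = 0.0615) and without control array 2 (limma adjusted p = 0.056), with log2 fold changes of 0.41 in both fits, and without variance moderation (adjusted p = 0.0628). RefSeq lists several starts for Mxi1, and its 1 probe set cannot tell their transcripts apart.

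Mycn and Mxi1, an activator and a repressor, rose by similar amounts. On the same arrays the log2 difference of Mxi1 minus Mycn, relative to its control mean, was −0.12, −0.00167 and 0.03 on knockdown arrays and −0.04, −0.03 and 0.07 on control arrays. Its groups overlapped, and its mean changed by −0.03. Relative to Myc, Mxi1 was 1.64-fold higher in the knockdown cells.

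None of the other 5 repressing partners was called in limma, and 0 of these 5 had an unadjusted p under 0.05, which 19% of all genes met. Mxd1, which rises when many cell types stop dividing, read 7.76, 7.75 and 7.90 (log2 level) in knockdown cells and 7.72, 7.76 and 7.72 in control cells. These groups overlapped, and the log2 fold change was 0.07 ± 0.056 SE. Mxd3, the family member found in dividing cells, read 7.15, 7.07 and 6.99 in knockdown cells and 7.09, 7.12 and 7.32 in control cells. Its log2 fold change was −0.11 ± 0.075 SE, smaller than the SD of the control values (0.13). Mxd4 read 7.05, 7.14 and 7.06 in knockdown cells and 7.13, 7.08 and 7.25 in control cells, again overlapping, with a log2 fold change of −0.07 ± 0.060 SE.

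Mnt, a broadly expressed antagonist of Myc, read 8.09, 8.04 and 8.09 (log2 level) in knockdown cells and 8.02, 7.998 and 8.06 in control cells. Its log2 fold change of 0.05 ± 0.046 SE had the narrowest confidence interval among the members, 0.96 to 1.11 as a ratio. Mga, a large protein that carries a T-box domain besides its zipper region, read 10.61, 10.71 and 10.75 in knockdown cells and 10.74, 10.78 and 10.70 in control cells. Its groups overlapped at a log2 fold change of −0.06 ± 0.056 SE. For these 5 genes the 95% confidence intervals of the ratio lay between 0.823 and 1.15. For each gene a true difference inside its own interval is not excluded.

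**Figure D3:**
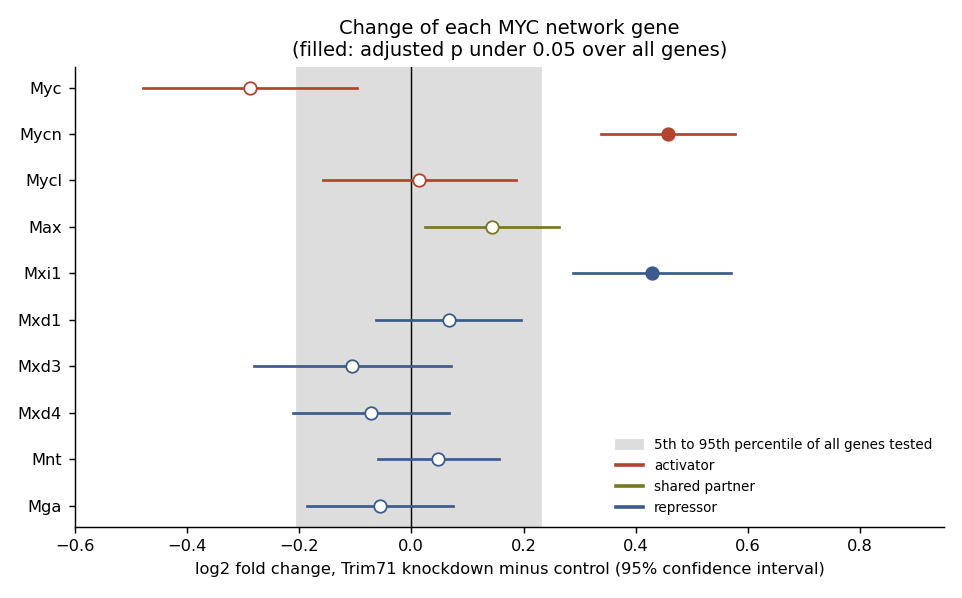
Log2 fold change (horizontal axis, knockdown minus control) of each member with its 95% confidence interval from limma, coloured by role, over the range from the 5th to the 95th percentile of all 19937 genes in grey. Mycn and Mxi1 (filled) were called at 0.46 and 0.43, Myc lay at −0.29 without a call, and the remaining members lay inside the grey range.

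Activators and repressing partners were then set side by side. The 3 activators had a median log2 fold change of 0.01, with values of −0.29 to 0.46, and 1 of 3 was called. The 6 repressing partners had a median of −0.0037, with values of −0.11 to 0.43, and 1 of 6 was called. The median over all genes was 0.0048, and 90% of genes lay between −0.20 and 0.23. Of the repressing partners 3 had positive and 3 had negative values.

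The genes whose values ran most like those of the 2 called members are given as a description over the 6 arrays. Likeness was the root mean square difference between the log2 values of a pair, each centred on its own mean. Nearest to Mycn were Krt17, an epithelial keratin gene, at 0.0362, Acp1, a phosphatase gene, at 0.0365 and Slc35c1, a GDP-fucose transporter gene, at 0.0367. Nearest to Mxi1 were Sec14l1 at 0.0319, Hsf5, a heat shock factor family gene of the testis, at 0.0335 and Akt1s1, which encodes an mTOR complex inhibitor, at 0.0366. All 6 of these genes had log2 fold changes of 0.42 to 0.46, close to the 0.46 of Mycn and the 0.43 of Mxi1. This closeness follows from the choice by likeness on the same arrays and is not a separate result.

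Genes around the network were followed in 9 lists compiled for this purpose from general knowledge of MYC biology, with earlier results of these arrays known. They hold 143 entries, of which 134 were measured. Of these, 12 rose and 5 fell, 12.7% called against 5.53% of all genes. The lists hold genes picked partly with those results in view, so this share is not independent support for a shift. The number of list genes called lay between 3 and 36 under the alternative settings, so the counts per list are loose.

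Genes that MYC proteins activate rose for 4 of 40 measured and fell for 0 (10% called, against 5.53% of all genes), with a median log2 fold change of 0.03. Odc1, the first enzyme of polyamine synthesis and a classical MYC target, read 10.81, 10.88 and 10.84 (log2 level) in knockdown cells and 10.56, 10.53 and 10.51 in control cells. It rose 1.24-fold, with a limma adjusted p of 0.0123. Tcof1, which encodes the nucleolar protein treacle, rose 1.19-fold, and Tfrc, the transferrin receptor gene, 1.18-fold, both without overlap between groups. Ccnd2, which encodes cyclin D2, rose 1.73-fold and was the 1 gene of these 4 that stayed called with each array left out. Odc1 was called in 2 of 6 such fits, Tcof1 in 1 and Tfrc in 0, with limma adjusted p-values of up to 0.149. The other 36 genes, among them every ribosome-building gene of the list except Tcof1, were not called. An E-box CACGTG lay in 10 of 44 promoter windows of 33 list genes (22.7%, against 7.15% of all windows). The E2F words searched in the Mycn window lay in 3 of these 44 windows (6.82%, against 0.813% of all windows). Of the 4 called genes, Odc1 and Tfrc were matched to windows, which held none.

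Genes reported as repressed by MYC proteins were split, 2 rising and 2 falling of 8 measured, with a median of 0.04. That is 50% called, against 5.53% of all genes, in a list of few genes. Thbs1, a matrix glycoprotein gene that limits vessel growth, read 10.39, 10.38 and 10.44 (log2 level) in knockdown cells and 9.79, 9.91 and 9.99 in control cells. Gadd45a, a DNA damage response gene, rose 1.25-fold. Ndrg1, a stress-induced gene that Mycn is known to repress, read 8.65, 8.62 and 8.57 in knockdown cells and 9.15, 9.07 and 9.07 in control cells, with no overlap. Cdkn1b, the cell cycle inhibitor p27, read 8.56, 8.48 and 8.72 in knockdown cells and 9.09, 9.04 and 9.06 in control cells. Thbs1 and Ndrg1 stayed called with each array left out. Cdkn1b lost the call without control array 1 (limma adjusted p = 0.06), and Gadd45a without any 1 control array and without knockdown array 2 (limma adjusted p of up to 0.0739). With its probe sets averaged, Cdkn1b had a log2 fold change of −0.41 in place of −0.48 and stayed called (limma adjusted p = 0.0424).

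Mlx is a second hub, which pairs with the glucose-sensing factors encoded by Mlxip (MondoA) and Mlxipl (ChREBP). Of the 5 genes of this branch 1 fell and 0 rose (20% called, against 5.53% of all genes). Txnip, the thioredoxin-interacting protein gene and the leading target of MondoA, read 8.28, 8.37 and 8.74 (log2 level) in knockdown cells and 9.12, 9.08 and 8.997 in control cells. Its log2 fold change was −0.60 ± 0.11 SE (limma adjusted p = 0.0274), the lowest of any gene in the lists. Knockdown array 3 lay closest to the controls. Txnip was called in 1 of 6 fits with an array left out, the one without knockdown array 3, and reached a limma adjusted p of 0.113 without control array 1. At an unadjusted p under 0.05, which 19% of all genes met, 4 of the 5 genes were lower. Arrdc4, the other target, was at −0.22, Mlxip at −0.16 and Mlxipl at −0.13, none of them called, and Mlx was at 0.06. These were named after their values were seen.

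**Figure D4:**
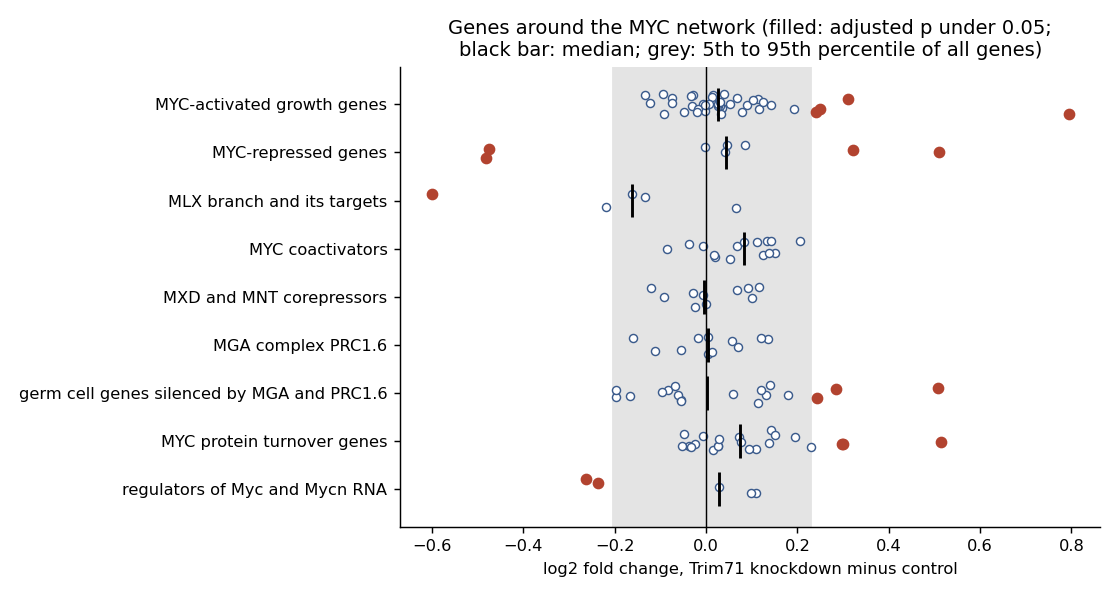
Log2 fold change (horizontal axis, knockdown minus control) of every measured gene in the 9 lists, 1 row per list, with called genes filled and list medians as black bars. Most genes lay within the 5th to 95th percentile of all genes (grey); Ccnd2 at 0.79 and Txnip at −0.60 were the outermost points.

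Cofactors of the network were called for 0 genes in limma. Among 15 coactivators of MYC, 0 were called, while 7 were higher and 0 lower at an unadjusted p under 0.05, which 19% of all genes met, and the median was 0.08. With a trended and robust prior 4 were called higher. Ep400, a chromatin remodeler of the TIP60 complex, had the largest value at 0.21 ± 0.052 SE (limma adjusted p = 0.0657). Ep400 was called higher under 4 of 15 alternative settings, with limma adjusted p-values of 0.00702 to 0.0388, and its adjusted p reached 0.229 with an array left out. Among 10 corepressors of the Mxd and Mnt proteins 0 were called and 1 was lower at an unadjusted p under 0.05, the histone deacetylase gene Hdac3 at −0.12. Hdac3 was called lower with the trended and robust prior (limma adjusted p = 0.0234), and its adjusted p reached 0.497 with an array left out. Of 11 subunits of the Polycomb complex PRC1.6, in which Mga and Max act, 0 were called, under any setting, and 1 was higher at an unadjusted p under 0.05. Yaf2 lay farthest from 0 in this complex at −0.16 ± 0.079 SE, with overlapping groups.

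Germ cell genes of the kind that Mga, Max and PRC1.6 hold silent rose for 3 of 18 measured and fell for 0 (16.7% called, against 5.53% of all genes), with a median of 0.0017. Smc1b, a cohesin subunit of meiosis, read 7.07, 7.07 and 7.23 (log2 level) in knockdown cells and 6.49, 6.80 and 6.56 in control cells, a rise of 1.42-fold (limma adjusted p = 0.0215). Mael, a factor of the piRNA pathway, rose 1.22-fold, and Tex101, a sperm surface protein gene, 1.18-fold. Mael averaged 9.76 in knockdown cells and 9.48 in control cells (log2 level), above the median level of all genes (6.70). Tex101 lay below that median, at 5.35 in knockdown cells and 5.11 in control cells. The remaining 15 genes were not called, and 9 of the 18 log2 fold changes were positive. At an unadjusted p under 0.05, which 19% of all genes met, 3 genes were higher and 2 lower. In each of 4 alternative settings 1 gene was called lower. These were the trended and robust prior, array weights, genes above the median level and repeated quantile normalization. With an array left out, Smc1b kept the call in 3 of 6 fits, Mael in 1 and Tex101 in 0, and their limma adjusted p reached 0.17.

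Genes that set the lifetime of MYC proteins rose for 3 of 22 measured and fell for 0 (13.6% called, against 5.53% of all genes), with a median of 0.08. Trim32, a ubiquitin ligase related to Trim71 and known in neural progenitors to mark Myc for degradation, read 7.59, 7.46 and 7.73 (log2 level) in knockdown cells, against 6.95, 7.09 and 7.19 in control cells. Gsk3b, a kinase whose phosphorylation of Myc and Mycn leads to their degradation, rose 1.23-fold (limma adjusted p = 0.0447). Set, an inhibitor of the phosphatase that destabilises Myc, also rose 1.23-fold (limma adjusted p = 0.0382). With its probe sets averaged, Set had a log2 fold change of 0.23 and was not called (limma adjusted p = 0.085). These 3 act on Myc in different directions. Trim32 lost the call without control array 1 or 2 (limma adjusted p of up to 0.0771), Set kept it in 1 of 6 such fits and Gsk3b in 0, with limma adjusted p-values of up to 0.175. Protein levels were not measured.

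Among 5 RNA-binding regulators of Myc and Mycn transcripts, 2 fell and 0 rose (40% called, against 5.53% of all genes). Lin28a and Lin28b, which block maturation of the let-7 microRNAs that act on Mycn and Myc, were 0.834 and 0.848 of control. Igf2bp1, a stabiliser of Myc mRNA, Igf2bp3 and Elavl1 were at 0.11, 0.10 and 0.03 on the log2 fold change scale and were not called. They were named after their values were seen. Lin28a and Lin28b were each called in 1 of 6 fits with an array left out, with limma adjusted p-values of up to 0.162.

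**Figure D5:**
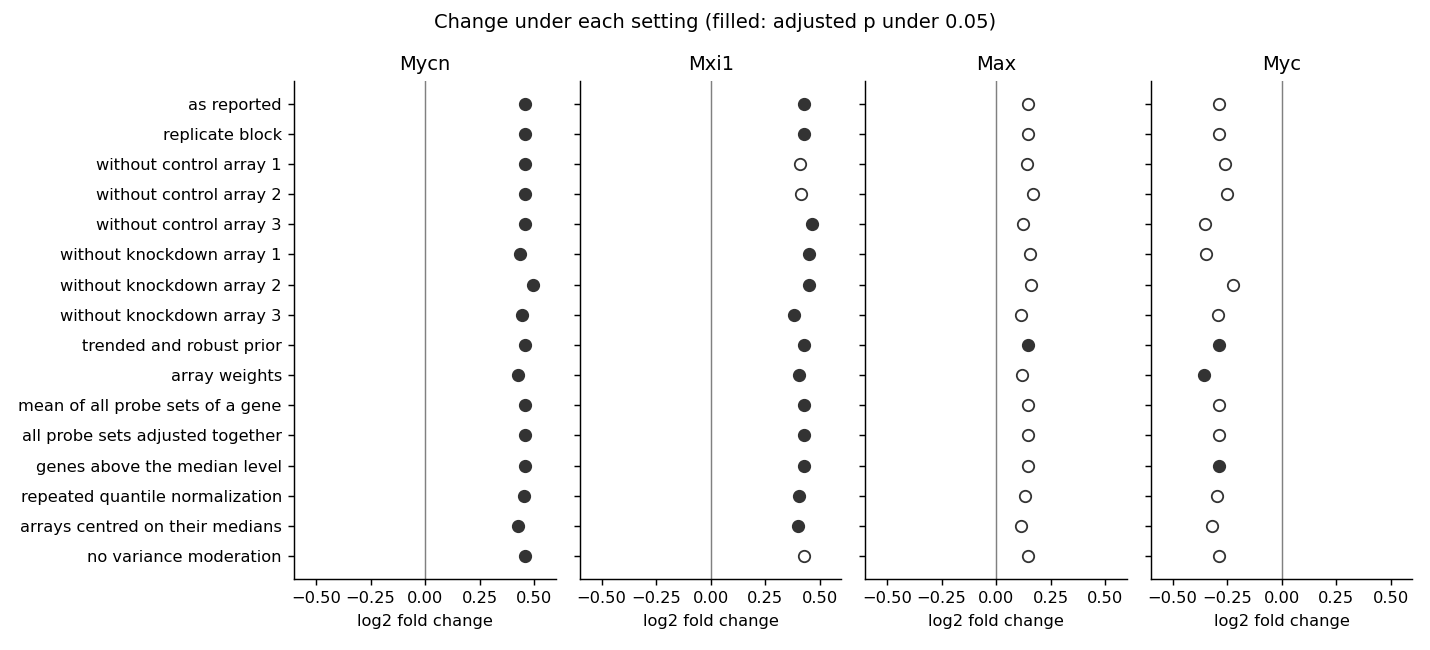
Log2 fold change (horizontal axis) of Mycn, Mxi1, Max and Myc under the reported fit and 15 alternative settings (rows), filled where the adjusted p was under 0.05. The sign of each of these 4 genes was the same in every setting, Mycn was filled throughout, Mxi1 in 12, Max in 1 and Myc in 3 of the 15 alternatives.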

How the data were processed

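Per the labels' protocols, 100 ng of RNA per sample went through a whole-transcript amplification kit onto single-colour Affymetrix arrays. The deposited table holds log2 values for 34760 probe sets, made by the authors with RMA and affy, per the submitters' processing notes, with versions and genome build not given in the sources used here. This method equalises the arrays, so a change shared by most genes cannot be seen. GEO's platform annotation gave 1 symbol to 21640 probe sets, several to 1321 and none to 11799. The probe set with the highest mean stood for each of 954 genes with several, leaving 19937 genes. Group was the only term in limma 3.58.1 (R 4.3.3). The fit was checked on simulated data. Tables and plots used Python 3.11.15, pandas 2.3.3 and matplotlib 3.10.9. The number of arrays limits the precision. The members and lists were chosen with earlier results of these data known. Named are all members, Trim71, the called genes of each list (or, with none called, the one with the largest change) and the 3 nearest genes of each called member; markers that were called and 7 uncalled list genes were named after their values were seen. Alternatives were a replicate block, each array left out, a trended and robust prior, array weights, averaged probe sets, all probe sets, brighter genes, 2 scalings and no variance moderation.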

Additional observations from a re-analysis of the deposited data

How the results depend on the processing

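Over 15 alternatives the 2 member calls became 4 with a trended and robust prior, 3 with array weights, 3 among brighter genes (Myc being called lower in each of these) and 1 without variance moderation, and with single arrays left out they numbered 1 to 2. Log2 fold changes kept their sign for 9 of 10 members. Mycl turned to −0.040 without control array 1, −0.043 without knockdown array 1, −0.015 after a repeated quantile normalization and −0.016 with centred arrays, and ranged up to 0.061 with an array left out. The cause was not tested. The replicate numbers showed no pairing (correlations of deviations −0.02, −0.15 and −0.24). With a replicate block, Mycn (adjusted p = 0.0376) and Mxi1 (adjusted p = 0.0368) stayed called in limma, 279 genes were called in place of 1103, and 5 list entries in place of 17. Gene calls numbered 2067 with the trended and robust prior, 2172 with array weights, 1890 among brighter genes, 413 without moderation, 400 over all probe sets and 249 to 1302 with single arrays left out. List calls were 36 with that prior, 28 among brighter genes, 7 without moderation, 5 over all probe sets and 3 to 13 with single arrays left out. Txnip and Trim32, among other list calls, were lost in such fits. Scaling moved the median of all genes by less than 0.1. Trim71 stayed called in all 15.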
